A study of Mus musculus with 22 samples.

Results

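A230103L15Rik, Gm44560, Gm44559, Gm44562 and 9330162G02Rik are 5 unspliced transcripts at the antisense end of Ube3a, and they were followed here through both mouse models of Prader-Willi syndrome (PWS). They were picked by name, as the measured genes at the far end of Snhg14 and within Ube3a on its opposite strand, and were selected on how they behaved in the PWS-cr and PWS-IC comparisons. They are 5 of the 55406 genes in both count tables. Because the genotype comparisons of the 2 models chose them, their levels in those comparisons are given as a description, without a p value. For the 5, tests are given only for what the choice did not use: the wild types of the 2 colonies, sex and litter. Counts of the 5 called in the genotype comparisons are descriptions. For some other genes adjusted p values of the genotype comparisons are given, although these genes were chosen with earlier results of these data known.

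RNA was sequenced from whole brain on the morning after birth (postnatal day 0). PWS-cr pups are heterozygous for a deletion, inherited from the father, that removes the Snord116 cluster of small nucleolar RNAs and Ipw, and were compared with wild-type (WT) littermates of that colony. PWS-IC pups inherited a deletion of the imprinting centre from the father, and were compared with WT littermates of their own colony. Each mutant group is a single constitutive deletion line, and a whole brain pools every cell type. The count tables held 6 PWS-cr and 5 WT libraries from 4 litters, and 4 PWS-IC and 5 WT libraries from 2 litters.

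Ube3a encodes a ubiquitin ligase that neurons read almost only from the maternal chromosome. On the paternal chromosome, transcription that starts near Snrpn, at the imprinting centre, runs through the small nucleolar RNA clusters as Snhg14 and on into Ube3a from behind. This antisense transcription is known for keeping the paternal copy of Ube3a silent in neurons. The 5 transcripts lie on the strand of that antisense RNA, and no function is assigned to any of them in the annotation.

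All 5 are single-exon genes on the minus strand of chromosome 7 (mm10, GENCODE), of the TEC biotype, which marks transcripts that still await an experimental check. Read in the direction of the antisense RNA, A230103L15Rik comes first, at chr7:59327318-59331189, 19.4 kb inside the distal end of Snhg14 but outside its exons, and 15.8 kb beyond the 3′ end of Ube3a. Gm44560 follows at chr7:59286052-59289166, where 2025 of its 3115 bases (65%) lie opposite exons of Ube3a. Gm44559 (chr7:59262923-59263934, 1012 bases) and Gm44562 (chr7:59258855-59260201, 1347 bases) sit in the same intron of Ube3a, with no base opposite an exon. 9330162G02Rik is the longest, with 30942 bases at chr7:59223847-59254788. It lies opposite the first part of Ube3a, crosses the Ube3a promoter and stops 4.9 kb beyond it, and 1796 of its bases (5.8%) are opposite Ube3a exons. The libraries carry no strand, so reads from these transcripts and from Ube3a where they overlap cannot be told apart.

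The last 100 bases of each transcript are shown because the libraries were made from polyadenylated RNA, and a record may end at a polyadenylation signal or at a run of A in the genome. Capitals mark AATAAA or ATTAAA, searched on the transcript strand only, and runs of at least 10 A.
A230103L15Rik: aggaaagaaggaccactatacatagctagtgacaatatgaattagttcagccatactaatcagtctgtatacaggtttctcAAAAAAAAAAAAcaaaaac
Gm44560: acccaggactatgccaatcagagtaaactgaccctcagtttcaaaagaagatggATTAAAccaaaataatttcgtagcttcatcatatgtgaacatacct
Gm44559: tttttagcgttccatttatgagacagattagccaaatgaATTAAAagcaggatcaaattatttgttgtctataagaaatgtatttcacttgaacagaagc
Gm44562: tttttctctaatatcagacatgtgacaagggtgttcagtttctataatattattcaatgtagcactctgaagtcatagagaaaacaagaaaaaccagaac
9330162G02Rik: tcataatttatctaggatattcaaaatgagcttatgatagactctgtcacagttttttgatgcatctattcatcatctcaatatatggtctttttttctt
A hexamer of this kind stood 46 bases before the end of Gm44560 and 61 bases before the end of Gm44559. Across 139316 GENCODE transcripts, 36.9% hold 1 of the 2 hexamers in their last 100 bases. A230103L15Rik had a run of 12 A close to its end, where 63.3% of the last 30 bases are A, and 1.55% of those transcripts have a run of 10 or more. Gm44562 and 9330162G02Rik had neither in this window. Gm44562 is rich in A at its end (60% of the last 30 bases), whereas 20% of the last 30 bases of 9330162G02Rik are A.

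The stretch of the Ube3a promoter that 9330162G02Rik crosses is shown because it is where the antisense RNA meets the start of its sense partner. It is RefSeq sequence (GRCm38.p6) of the plus strand at chr7:59228630-59228749, ending at the base before the Ube3a start, with CG in capitals.
Ube3a promoter: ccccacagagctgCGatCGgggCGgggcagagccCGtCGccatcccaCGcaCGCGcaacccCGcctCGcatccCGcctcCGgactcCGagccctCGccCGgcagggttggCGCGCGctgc
This stretch holds 18 CG, and the whole 300-base window of the promoter holds 29, against a median of 7 over 32851 RefSeq windows. At least as many CG were found in 12.9% of the windows.

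Some libraries went against their labels. The library labelled PWS-IC replicate 1, a female, had 64 Xist counts and 3191 Eif2s3y counts, with 407 CPM of Snrpn, while the library labelled WT of PWS-IC replicate 3, a male, had 124574 Xist counts, 9 Eif2s3y counts and 5.57 CPM of Snrpn. CPM are counts scaled to library size, here with TMM factors within a series. The sexes and Snrpn levels of the other 18 libraries matched their labels. Values of the PWS-IC series are therefore given for the remaining 3 PWS-IC and 4 WT libraries, and the values of the 2 libraries set aside are given beside them. Total counts lay between 45798407 and 62103143 per library. In PWS-cr pups the deletion showed in Gm44831, a transcript within Snhg14, with 1 count in all 6 libraries together, against 229 to 296 counts in each WT library.

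**Figure D1:**
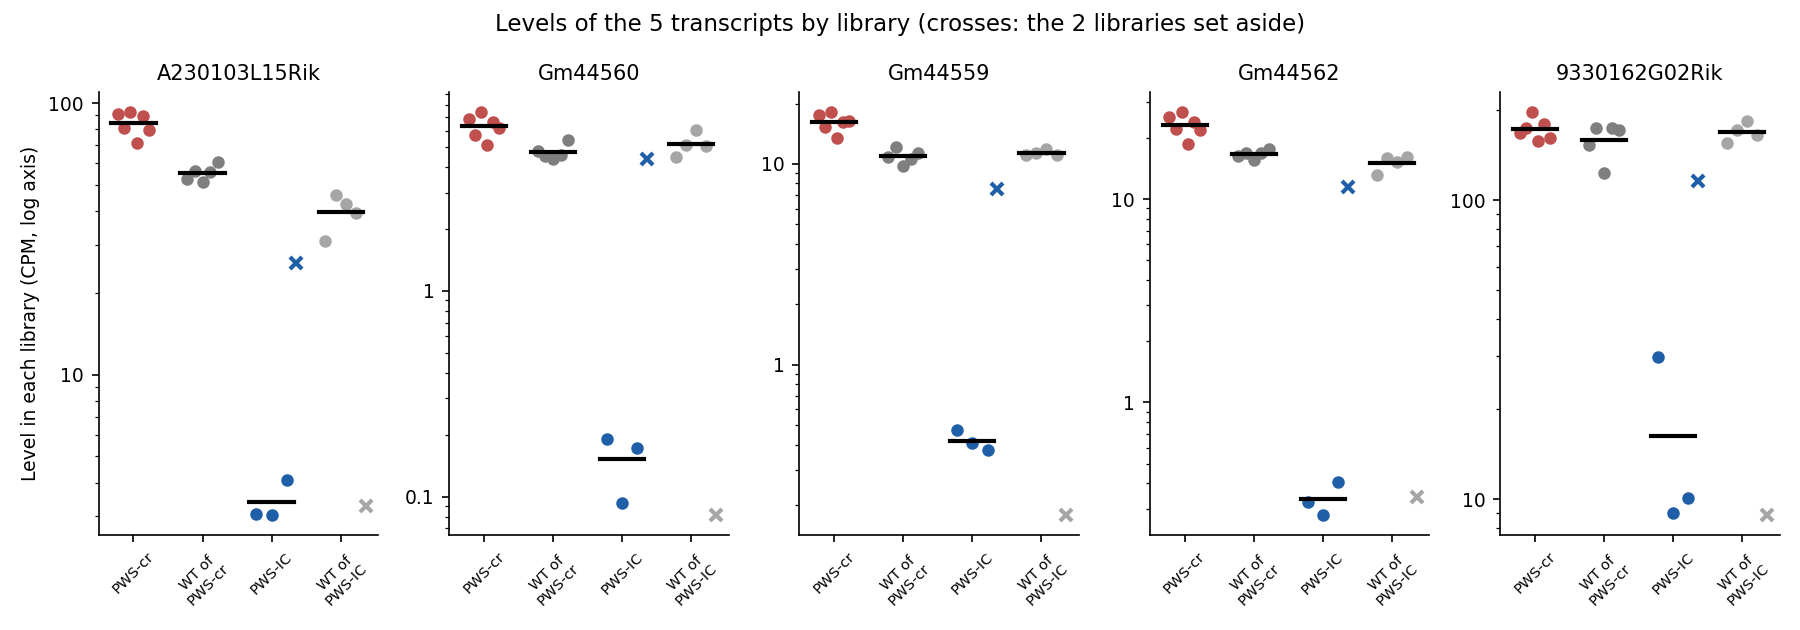
Level of each transcript (CPM, log axis) in every library of PWS-cr, WT of PWS-cr, PWS-IC and WT of PWS-IC. Points are libraries, bars are means over the libraries kept, and crosses are the 2 libraries set aside. The 3 PWS-IC points lie far below all WT points in each panel, while the 6 PWS-cr points lie above the WT points for A230103L15Rik, Gm44559 and Gm44562.

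In PWS-cr brains 4 of the 5 transcripts stood at 1.36 to 1.56 times the WT level, and 9330162G02Rik, at the far end, at 1.10 times. A230103L15Rik showed the greatest difference of the 5. Its level had a low of 71.3, a median of 85.3 and a high of 92.6 CPM in the 6 PWS-cr libraries, against 52.3, 56.3, 51.3, 55.8 and 60.8 CPM in WT. The groups did not overlap, and the log2 fold change was 0.64 ± 0.07 (SE; edgeR with litter as a term, n = 6 and 5).

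Within Ube3a, Gm44559 had a low of 13.5, a median of 16.3 and a high of 18.1 CPM in PWS-cr, against 10.9, 12.2, 9.72, 10.6 and 11.4 CPM in WT. Its groups did not overlap either (log2 fold change 0.59 ± 0.08). Gm44562 had a low of 18.7, a median of 23.1 and a high of 26.7 CPM in PWS-cr, against 16.3, 16.9, 15.6, 16.9 and 17.5 CPM in WT. Here too each PWS-cr library lay above each WT library (log2 fold change 0.50 ± 0.07). Gm44560, which lies largely opposite Ube3a exons, had a low of 5.14, a median of 6.38 and a high of 7.38 CPM in PWS-cr, against 4.79, 4.53, 4.37, 4.59 and 5.42 CPM in WT. For this transcript 5 of 6 PWS-cr libraries exceeded the highest WT library, and the log2 fold change was 0.44 ± 0.10.

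9330162G02Rik overlapped between the groups. It had a low of 158, a median of 171 and a high of 197 CPM in PWS-cr, against 153, 174, 123, 174 and 172 CPM in WT, with 3 of 6 PWS-cr libraries above the highest WT library. Its log2 fold change was 0.14 ± 0.10, with an approximate 95% interval of -0.07 to 0.34. The median log2 fold change of the 5 was 0.50, against 0.00 over the 22172 genes tested.

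At an adjusted p under 0.05, 1 of the 5 was called in the PWS-cr comparison, where 0.0135% of all genes were called. Groups that did not overlap, with PWS-cr above WT, were found for 3 of the 5, against 0.0947% of all genes tested. Since this contrast chose the transcripts, neither count is a result about them. The single call, of A230103L15Rik, depended on which libraries were kept: with 1 library left out in turn its log2 fold change stayed at 0.58 to 0.73, and 0 to 2 of the 5 were called, 0 without PWS-cr replicate 5 or without WT replicate 1 or 4, and 2 without WT replicate 3. WT replicate 1 is the only WT pup of litter 1, and PWS-cr replicate 5 the only PWS-cr pup of litter 3. Without either, that litter adds nothing to the genotype effect. The same holds for PWS-cr replicate 6 in litter 4, without which 1 of the 5 was called. DESeq2 on the same genes and edgeR with no filter on low counts each called 3 of the 5.

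Of the 4 transcripts that stood higher, all but Gm44559 had their smallest ratio to WT littermates in litter 4. A230103L15Rik was 1.69 times WT in litter 1 (3 PWS-cr pups, 1 WT), 1.66 times in litter 3 (1 PWS-cr pup, 2 WT) and 1.36 times in litter 4 (1 PWS-cr pup, 2 WT). Gm44559 varied least between litters, at 1.56, 1.48 and 1.50 times WT in the same order, whereas Gm44562 was at 1.52, 1.48 and 1.27 times and Gm44560 at 1.39, 1.48 and 1.23 times. In each of these litters every PWS-cr pup was above its WT littermates for these 4 transcripts. 9330162G02Rik was 1.18 and 1.21 times WT in litters 1 and 3, but in litter 4 the PWS-cr pup, at 161 CPM, was below both WT littermates, at 174 and 172 CPM. The remaining PWS-cr pup, replicate 4, was alone in litter 2, so that it adds nothing to a fit with litter as a term.

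**Figure D2:**
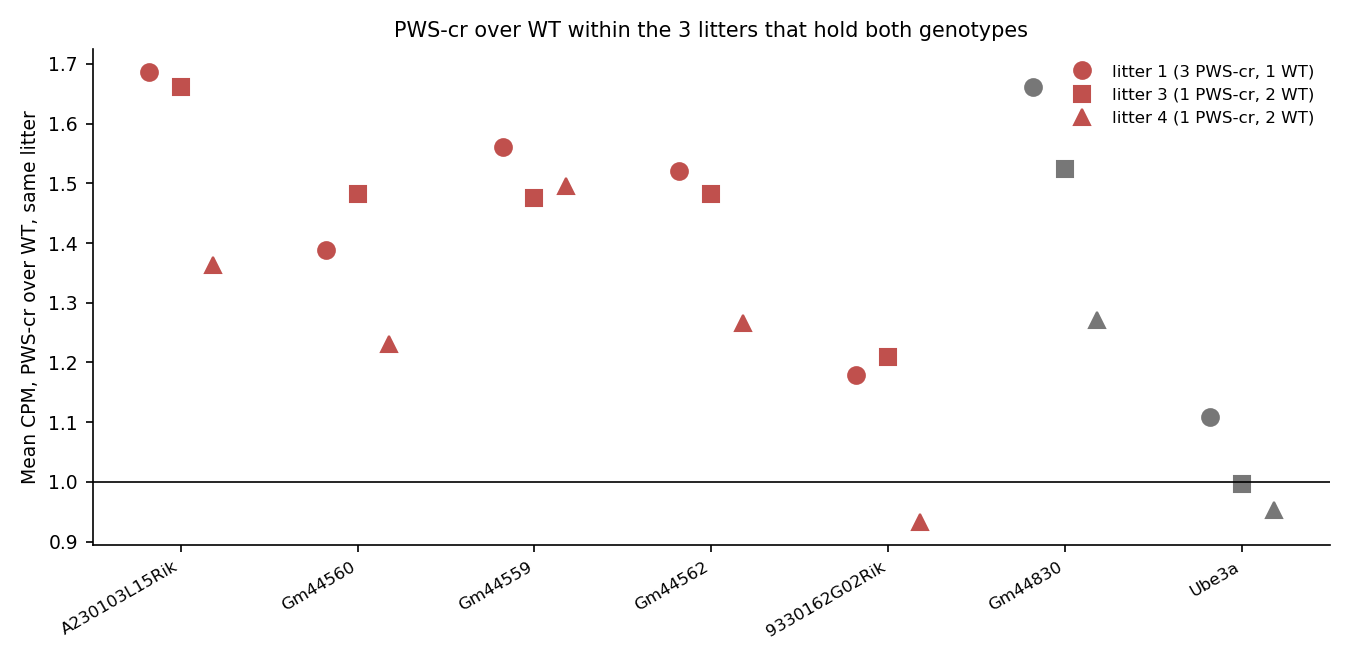
Mean level in PWS-cr over mean level in WT (CPM ratio, linear axis) within the 3 litters that hold both genotypes, for the 5 transcripts (red) and for Gm44830 and Ube3a (grey); circles are litter 1, squares litter 3 and triangles litter 4. Every litter is above 1 for A230103L15Rik, Gm44560, Gm44559, Gm44562 and Gm44830, and 9330162G02Rik lies at 0.933 in litter 4.

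At some of the extremes the 5 transcripts picked the same pup. PWS-cr replicate 3 had the highest level of its group for 5 of 5 transcripts and replicate 4 the lowest for 5 of 5. WT replicate 4 of the PWS-cr series was the lowest of its group for 5 of 5, and so was WT replicate 1 among the 4 WT libraries of the PWS-IC series. The highest WT pup of either series, and both the highest and the lowest PWS-IC pup, differed between the transcripts. Markers of caudal hindbrain and spinal cord (8 Hox genes) differed widely between libraries, with a summed level of 0.570 to 67.4 CPM in PWS-cr and 0.690 to 22.3 CPM in WT. PWS-cr replicates 3 and 4, the highest and the lowest for the 5 transcripts, had 53.0 and 2.90 CPM of it, but the PWS-cr extremes of this sum were replicates 5 and 1. WT replicate 4 of the PWS-cr series, the lowest for the 5 transcripts, had 21.1 CPM, near the top of its group, and WT replicate 1 of the PWS-IC series had 52.2 CPM, the highest of its group. The 12 neuronal markers summed to 8981 to 9390 CPM in PWS-cr and 8535 to 9394 CPM in WT, so that the labelled tissue had its markers. Over all 59 cell type markers edgeR called 0 in PWS-cr at an adjusted p under 0.05 (0 by DESeq2), where 0.0135% of all genes were called. At an unadjusted p under 0.05 there were 8 of the 59 markers, against 459 of the 22172 genes tested. The part of tissue content in these differences was not tested, and fewer cells of a type and less RNA per cell cannot be told apart in whole brain.

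In PWS-IC brains the 5 transcripts were at 1.80% to 17.6% of the WT mean. A230103L15Rik had 3.08, 3.03 and 4.08 CPM in PWS-IC, against 31.1, 46.0, 42.3 and 39.3 CPM in WT. This leaves 7.75%, 7.65% and 10.3% of the WT mean, the highest share of the 5 apart from 9330162G02Rik in 1 library (log2 fold change -3.56 ± 0.16; n = 3 and 4). The library labelled PWS-IC that was set aside had 25.8 CPM, and the one labelled WT had 3.27 CPM.

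Gm44560, Gm44559 and Gm44562 kept a smaller share than A230103L15Rik. Gm44560 had 0.190, 0.0931 and 0.172 CPM in PWS-IC (10, 5 and 11 counts), against 4.47, 5.11, 6.03 and 5.07 CPM in WT, a log2 fold change of -5.08 ± 0.23. Gm44559 had 0.475, 0.410 and 0.375 CPM in PWS-IC, against 11.1, 11.4, 11.8 and 11.1 CPM in WT (log2 fold change -4.75 ± 0.14). Each of these kept under 5% of its WT level in all 3 PWS-IC libraries. Gm44562 had 0.323, 0.279 and 0.406 CPM in PWS-IC (17, 15 and 26 counts), against 13.2, 15.8, 15.2 and 16.1 CPM in WT. At -5.48 ± 0.16 its log2 fold change was the most negative of the 5, with 2.14%, 1.85% and 2.69% of the WT mean remaining. In the libraries set aside, the one labelled PWS-IC had 4.36, 7.51 and 11.5 CPM of Gm44560, Gm44559 and Gm44562, and the one labelled WT had 0.0813, 0.179 and 0.341 CPM.

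9330162G02Rik was uneven among the PWS-IC pups. It had 29.8, 8.95 and 10.1 CPM in PWS-IC, against 155, 171, 184 and 165 CPM in WT. PWS-IC replicate 2 thus kept 17.6% of the WT mean, while replicates 3 and 4 kept 5.30% and 5.96%. The log2 fold change was -3.43 ± 0.29 over the 3 pups and -4.20 without replicate 2. None of the other 4 transcripts showed a comparable gap in that pup, whose A230103L15Rik, at 3.08 CPM, lay between those of the other 2 PWS-IC pups. Replicate 2 is also the PWS-IC pup of litter 1 and had 58.7 CPM of the Hox markers, against 28.9 and 12.5 CPM in replicates 3 and 4; the part of either in the gap was not tested. The library labelled PWS-IC that was set aside had 116 CPM of 9330162G02Rik and the one labelled WT had 8.84 CPM.

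**Figure D3:**
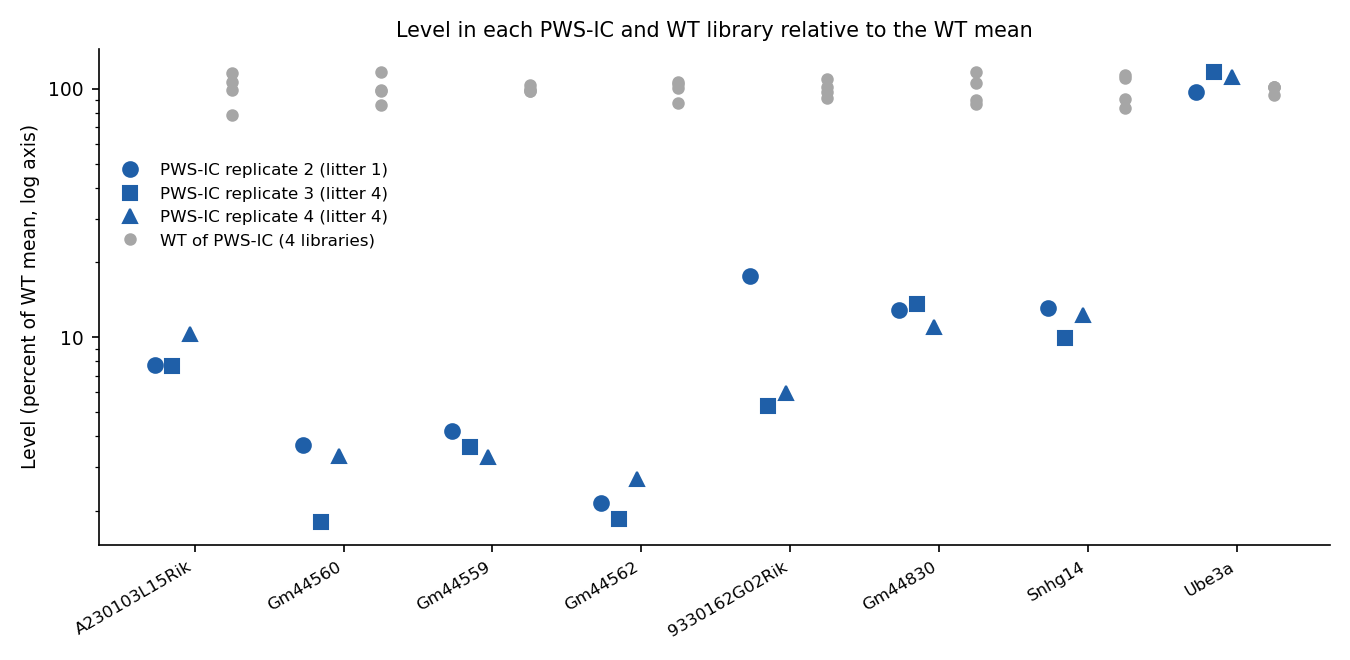
Level in each library as a percent of the WT mean (log axis) for the 5 transcripts, Gm44830, Snhg14 and Ube3a; blue marks are the 3 PWS-IC libraries and grey points the 4 WT libraries. Gm44560, Gm44559 and Gm44562 keep 1.80% to 4.18%, 9330162G02Rik 5.30% to 17.6%, A230103L15Rik 7.65% to 10.3%, and Gm44830 and Snhg14 9.95% to 13.6%, and Ube3a lies near its WT level.

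All 5 were called by edgeR in the PWS-IC comparison, where 0.242% of the 21913 genes tested were called, and all 5 had PWS-IC libraries below every WT library, which 5.31% of genes tested had. This contrast also chose the transcripts, so both counts are descriptions. With all 9 libraries as labelled, the log2 fold changes of the 5 were between -2.43 and -2.03 and edgeR called 0 of the 5. Sex could hardly be separated from genotype, since the 3 PWS-IC pups were female and 3 of 4 WT pups male. Levels of blood genes moved with genotype as well: the summed level of 5 globin and haem genes was 434 to 677 CPM in PWS-IC and 136 to 325 CPM in WT. Hbb-bt was the 1 marker called by edgeR of the 54 tested (2 by DESeq2). At an unadjusted p under 0.05 there were 13 of the 54 markers, against 2798 of the 21913 genes tested. The summed neuronal markers were at 8715 to 10342 CPM in PWS-IC and at 8937 to 9562 CPM in WT. The part of blood content in the result was not tested.

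**Figure D4:**
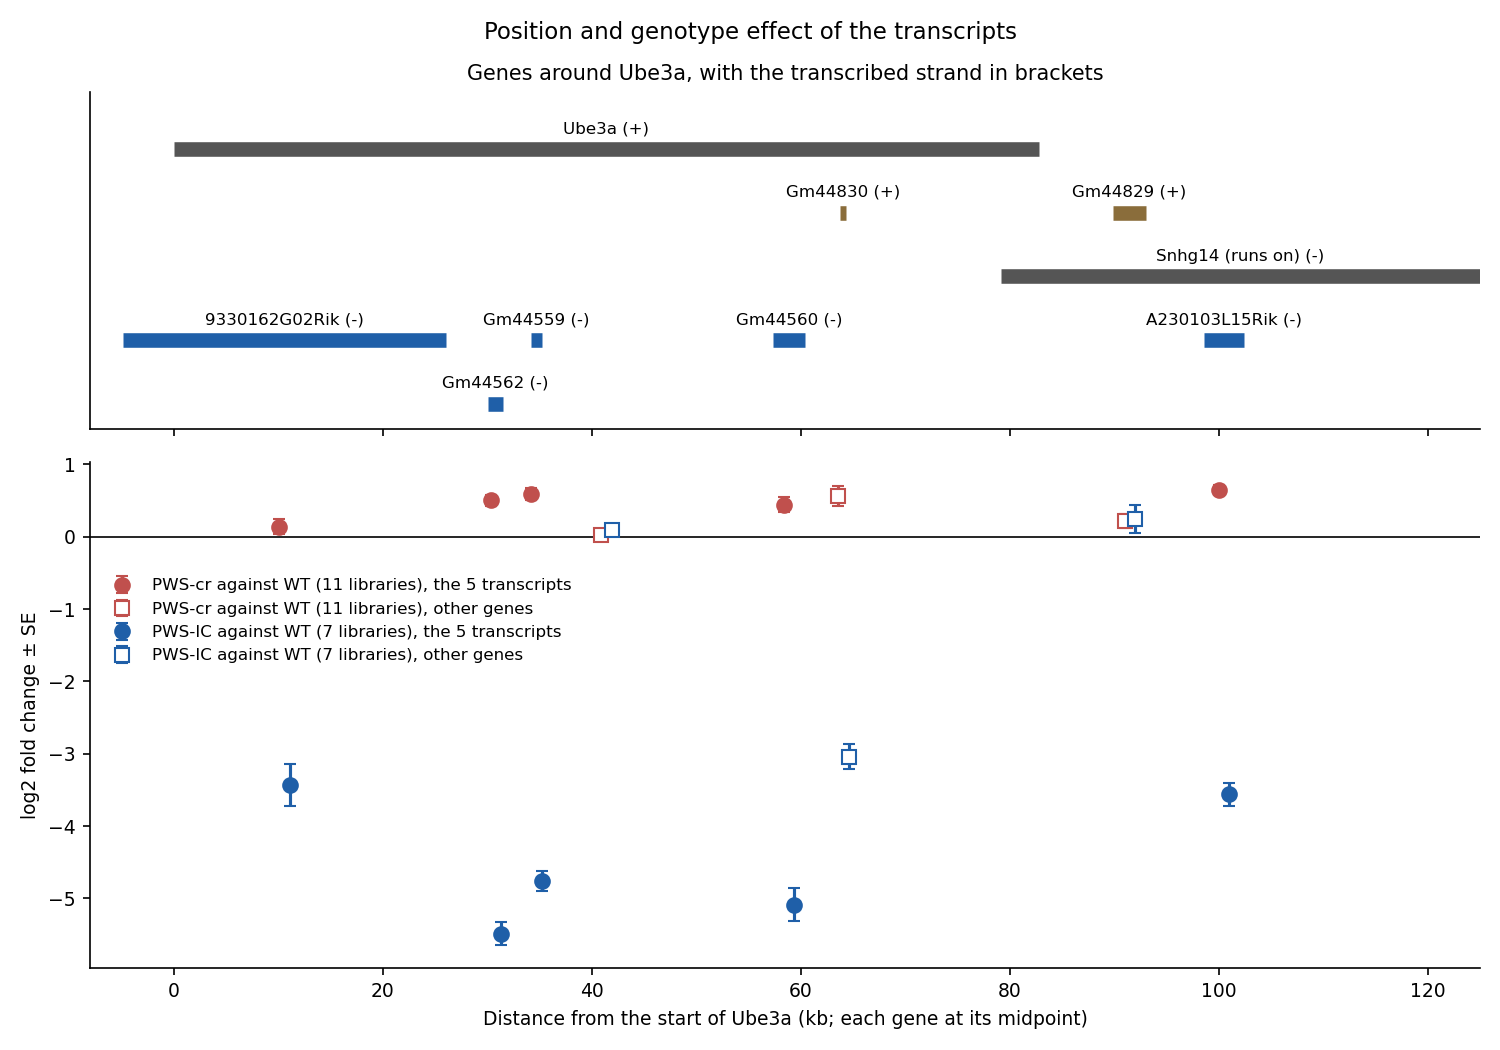
Top, genes around Ube3a by distance from the Ube3a start (kb), with the strand in brackets. Bottom, log2 fold change ± SE at each gene's midpoint for PWS-cr against WT (red, 11 libraries) and PWS-IC against WT (blue, 7 libraries); filled circles are the 5 transcripts and open squares other genes. The 5 transcripts lie above 0 in PWS-cr and below -3 in PWS-IC, Gm44830 goes with them, and Ube3a and Gm44829 lie between 0.02 and 0.25 in both.

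The difference between the models, as the PWS-IC effect minus the PWS-cr effect on the log2 scale, was -4.21 ± 0.17 for A230103L15Rik, -5.53 ± 0.23 for Gm44560, -5.35 ± 0.15 for Gm44559, -5.99 ± 0.16 for Gm44562 and -3.57 ± 0.33 for 9330162G02Rik. A log2 fold change above 0 in PWS-cr and below 0 in PWS-IC was shared by the 5, which is part of how they were chosen. In the fit over both series 5 of 5 were called, where 0.182% of all genes were called. Snhg14 itself had fewer counts in both models, with a log2 fold change of -1.67 ± 0.06 in PWS-cr and -3.10 ± 0.12 in PWS-IC. Gm44831, which lies within Snhg14, was absent in PWS-cr, so that part of the Snhg14 locus is missing there. How much of the lower Snhg14 count in PWS-cr comes from deleted exons was not tested. The counts do not say whether transcription of the rest of Snhg14 changed.

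Neighbouring genes were read in the same way. Gm44830 is a 584-base TEC gene on the plus strand inside Ube3a, between Gm44560 and the distal end of Snhg14. It had a low of 5.08, a median of 6.31 and a high of 8.43 CPM in PWS-cr, against 4.26, 4.85, 3.39, 4.75 and 5.21 CPM in WT, a log2 fold change of 0.56 ± 0.14 (edgeR adjusted p = 1.0). In PWS-IC it had 0.494, 0.521 and 0.422 CPM, against 3.35, 3.46, 4.49 and 4.07 CPM in WT (log2 fold change -3.04 ± 0.17). Although annotated on the Ube3a strand it moved as the antisense transcripts did, and the unstranded reads do not say which strand they came from. Its last 100 bases are shown to compare with the 5 above, in capitals AATAAA, 18 bases before the end of the plus-strand record.
Gm44830: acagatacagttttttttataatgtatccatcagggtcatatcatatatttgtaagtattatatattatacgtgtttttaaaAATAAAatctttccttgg
Gm44829, the plus-strand gene between Ube3a and A230103L15Rik, did not show the pattern, with a log2 fold change of 0.21 ± 0.10 in PWS-cr (edgeR adjusted p = 1.0) and 0.25 ± 0.19 in PWS-IC (adjusted p = 0.60). Ube3a had a low of 149, a median of 158 and a high of 167 CPM in PWS-cr, against 144, 166, 160, 158 and 166 CPM in WT. It had 193, 232 and 221 CPM in PWS-IC, against 202, 187, 202 and 201 CPM in WT. Its log2 fold changes were 0.02 ± 0.05 (adjusted p = 1.0) and 0.10 ± 0.06 (adjusted p = 0.50), with approximate 95% intervals of -0.08 to 0.12 and -0.02 to 0.22.

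Of the 219 genes annotated from the start of Ube3a to the end of Snhg14, 14 had enough counts to be tested in PWS-cr and 13 in PWS-IC, the 5 transcripts among them. The small nucleolar RNA genes tested between A230103L15Rik and Gm44831 went both ways in PWS-cr. Their log2 fold changes were -0.33 ± 0.12 (Gm24966), 0.48 ± 0.26 (Gm26498) and 0.96 ± 0.30 (Gm24983), and none was called. Of the tested genes other than the 5, edgeR called 0 higher and 2 lower in PWS-cr (Snhg14 and Gm44831). In PWS-IC it called 0 higher and 6 lower, and Ube3a and Gm44829 were not called. Over all genes tested edgeR called 1 higher and 2 lower in PWS-cr, and 18 higher and 35 lower in PWS-IC. A gene with counts only in the 3 PWS-IC libraries could not pass the filter of 4 libraries, so the PWS-IC split is partly fixed in advance.

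Of 8 paternally expressed genes of the PWS interval, 6 had enough counts to be tested. In PWS-cr 0 of the 6 were higher and 1 was lower, Snhg14, and in PWS-IC 0 were higher and 6 lower (edgeR, adjusted p under 0.05), with median log2 fold changes of 0.01 and -4.54 against 0.00 over all genes in both. The filter bears on the PWS-IC split here too, and the 6 include Snrpn, so the PWS-IC count is a description. Snrpn, which encodes a spliceosomal protein and lies at the start of the antisense RNA, differed by 0.12 ± 0.07 in PWS-cr (adjusted p = 1.0). In PWS-IC it differed by -5.27 ± 0.12. That value is a description, without a p value, because Snrpn levels were among the grounds for setting 2 libraries aside. Ndn, which encodes necdin, a neuronal growth suppressor, had a log2 fold change of 0.75 ± 0.09 in PWS-cr (edgeR adjusted p = 0.062). Although not called here, it had 394 to 482 CPM in PWS-cr and 210 to 356 CPM in WT. Such a lack of overlap was found for 0.0947% of all genes tested. The paper, with DESeq2, reported Ndn as upregulated in PWS-cr. The maternally expressed genes Ube3a and Atp10a, the second a phospholipid transporter, were not called in either model. Where antisense transcripts overlap Ube3a exons, the unstranded counts do not give sense Ube3a alone. By RT-qPCR the paper found Ube3a overexpressed in PWS-IC whole brain at this age.

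The levels of the 5 can be set against each other per kilobase of transcript. In WT of the PWS-cr series A230103L15Rik was the highest with 14.3 ± 0.97 CPM per kb (SD, n = 5), followed by Gm44562 with 12.3 ± 0.56, Gm44559 with 10.8 ± 0.91, 9330162G02Rik with 5.14 ± 0.72 and Gm44560 with 1.52 ± 0.13. Only Gm44562 and Gm44559 overlapped among neighbours in this order, at 11.6 to 13.0 and 9.61 to 12.1 CPM per kb. In PWS-cr the order was the same, with 21.7 ± 2.13 for A230103L15Rik, 17.2 ± 2.13 for Gm44562, 16.0 ± 1.61 for Gm44559, 5.59 ± 0.46 for 9330162G02Rik and 2.02 ± 0.26 for Gm44560 (CPM per kb, n = 6).

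In WT of the PWS-IC series Gm44559 (11.2 ± 0.32 CPM per kb), Gm44562 (11.2 ± 0.98) and A230103L15Rik (10.2 ± 1.64) did not differ beyond their spread, and 9330162G02Rik (5.46 ± 0.40) and Gm44560 (1.66 ± 0.21) followed (n = 4). In PWS-IC A230103L15Rik had 0.877 ± 0.153 CPM per kb, 9330162G02Rik 0.526 ± 0.379, Gm44559 0.415 ± 0.050, Gm44562 0.250 ± 0.048 and Gm44560 0.0487 ± 0.0165 (n = 3). Gm44560, the lowest in every group, was also the one with the largest share opposite Ube3a exons. How reads on more than 1 gene were counted is not given in the sources used here, and its part in the level was not tested.

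The WT pups of the 2 colonies were compared because this contrast did not choose the transcripts. With all libraries scaled together, A230103L15Rik was lower in the PWS-IC colony, with 31.4, 46.7, 42.7 and 40.2 CPM in WT of PWS-IC, against 52.2, 56.5, 51.0, 55.6 and 60.2 CPM in WT of PWS-cr. The log2 fold change was -0.45 ± 0.10 (edgeR adjusted p = 0.0058). The other 4 differed by 0.16 ± 0.11 (Gm44560), 0.08 ± 0.08 (Gm44559), -0.11 ± 0.07 (Gm44562) and 0.12 ± 0.10 (9330162G02Rik), with edgeR adjusted p values of 0.33 to 0.49 and approximate 95% intervals that together span -0.26 to 0.37.

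Thus 1 of the 5 was called, in a comparison in which 21.1% of all genes were called, and the colony, its litters and any separate handling of the series cannot be told apart. Snhg14 went the other way from A230103L15Rik, with a log2 fold change of 0.36 ± 0.09 (edgeR adjusted p = 0.014), and so did Ube3a with 0.35 ± 0.05 (adjusted p = 0.00044). With the library labelled WT of PWS-IC replicate 3 kept in, the difference of A230103L15Rik was -0.75 and was no longer called (adjusted p = 0.23).

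Sex and litter were tested among the 11 libraries of the PWS-cr series, with genotype as a term. Male over female pups, the log2 fold changes were 0.10 ± 0.06 for A230103L15Rik, 0.01 ± 0.10 for Gm44560, 0.04 ± 0.08 for Gm44559, 0.06 ± 0.07 for Gm44562 and 0.17 ± 0.09 for 9330162G02Rik. edgeR called 0 of the 5, with 0 at an unadjusted p under 0.05 and 0 by DESeq2, where 0.0316% of all genes were called. The approximate 95% intervals run from -0.19 for Gm44560 to 0.34 for 9330162G02Rik. For litter edgeR likewise called 0 of the 5 (adjusted p of 0.77 to 0.92; 0 at an unadjusted p under 0.05 and 0 by DESeq2), where 0.0226% of all genes were called.

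Genes with the most similar pattern were ranked by Pearson's r of log2 CPM over 21130 genes, as a description. Over all 20 libraries, which fall into high and low levels at this locus, the closest genes of each transcript were genes of chromosome 7, 0.0638 to 2.48 Mb from the Ube3a start, with r between 0.969 and 0.992. They were Gm44830, A230057D06Rik and Gm44644 for A230103L15Rik, and B230209E15Rik, Snrpn and Gm44644 for Gm44560. For Gm44559 and Gm44562 they were Gm44644, A230057D06Rik and B230209E15Rik, and for 9330162G02Rik Gm24966, A230006K03Rik and Gm44644. Over the 11 libraries of the PWS-cr series, Gm44830 came first for Gm44560 (r = 0.94), Gm44559 (r = 0.93) and Gm44562 (r = 0.94) and second for A230103L15Rik (r = 0.91, after Gm7890 and before Ndn). The closest genes of 9330162G02Rik in these 11 libraries were Pdia4, 2610001J05Rik and Slc2a6 (r = 0.89 to 0.93), all on other chromosomes. These libraries share litters and scaling, and the r values are not evidence of a link.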

How the data were processed

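RNA of 22 labelled whole brains was sequenced, and 20 libraries had a count column; the authors left 1 library per series out. The authors made polyadenylated, unstranded libraries (KAPA mRNA HyperPrep), mapped paired reads to mm10 with STAR and deposited raw counts per gene from featureCounts. The tables also hold 60 columns of size-factor-scaled counts, FPKM and TPM and the authors' DESeq2 fold changes and p values, none of which was used.

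The quasi-likelihood test of edgeR 4.0.16, under R 4.3.3, was run on these counts after TMM scaling. Genes entered if 4 or more libraries had 10 or more counts. The genotype models held litter too. Calls were made where the p value, adjusted over all tested genes by Benjamini-Hochberg, was under 0.05. The SE is the log2 fold change over the square root of F, and intervals are approximate. The difference between the models came from 1 fit over both series. The p values set an effect against the variation between these libraries that is left after the terms of the model. Litter is the first number of a library's title. Positions are from GENCODE vM21, and sequences from its transcripts and from RefSeq promoters; none of the 5 is in the promoter table. The script was tested on simulated data.

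The 5 transcripts, the neighbours between Ube3a and Snhg14, the paternal and maternal genes and the cell type markers were chosen with earlier results of these data known, as was the setting aside of the 2 libraries that went against their labels. By the rule for named genes these are the 5, Snhg14, Ube3a, Gm44831, the genes next to a member, and the 3 genes most like each by r. Alternatives were RLE scaling, DESeq2 1.42.0, no filter, 10 counts in every library, no litter term, sex as a term, all libraries as labelled and each library left out.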

Additional observations from a re-analysis of the deposited data

Results flagged for a closer look

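Among the 4 libraries labelled PWS-IC, replicate 1 was the highest for 5 of 5 transcripts, and its gap to the others passed Dixon's 95% limit for 4 of them, with 25.8 CPM of A230103L15Rik, 4.36 CPM of Gm44560, 7.51 CPM of Gm44559 and 11.5 CPM of Gm44562. Among the 5 libraries labelled WT of PWS-IC, replicate 3 was the lowest for 5 of 5, and passed that limit for 4 of them, with 0.0813 CPM of Gm44560, 0.179 CPM of Gm44559, 0.341 CPM of Gm44562 and 8.84 CPM of 9330162G02Rik. These are the 2 libraries whose Xist and Eif2s3y counts went against their labelled sex. In all, 25 groups of 4 to 6 values were screened in this way and 8 passed the limit, all 8 through these 2 libraries. By its construction the limit is passed by chance in about 1 in 20 independent groups. The 25 groups share the same pups, and these 2 libraries were known beforehand, so this rate cannot be set against the 8.

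The genotype effects of the 2 models differed for each of the 5, by -4.21 for A230103L15Rik, -5.53 for Gm44560, -5.35 for Gm44559, -5.99 for Gm44562 and -3.57 for 9330162G02Rik (PWS-IC effect minus PWS-cr effect, log2, edgeR interaction term). The transcripts were selected on this difference.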

How the results depend on the processing

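The log2 fold changes of the 5 kept their direction in PWS-cr and in PWS-IC under every alternative run, and 9330162G02Rik in PWS-cr lay between 0.06 and 0.24 with 1 library left out. The median log2 fold change with 1 library left out was 0.45 to 0.57 in PWS-cr, -4.87 to -4.67 in PWS-IC, -5.45 to -5.26 for their difference, 0.03 to 0.12 between the wild types and 0.02 to 0.12 for sex. Genes called with 1 library left out numbered 2 to 4 (PWS-cr), 28 to 55 (PWS-IC), 35 to 52 (difference), 3419 to 5021 (wild types), 7 to 42 (sex) and 1 to 7 (litter), and 0 to 2 of the 5 were called in PWS-cr. PWS-cr replicate 6 gave the 42 for sex, and WT of PWS-IC replicates 5 and 6 gave 28 and 31 in PWS-IC. For litter, 1 gene was called without PWS-cr replicate 4, and 3 without PWS-cr replicate 1, 5 or 6.

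With no filter on low counts edgeR called 10 genes in PWS-cr, 3 of the 5 among them, 978 in PWS-IC, 477 for the difference, 70 for sex and 102 for litter. DESeq2 called 7 in PWS-cr, 3 of the 5 among them, 223 in PWS-IC, 16 for sex and 88 for litter. With 10 counts in every library 31 genes were called in PWS-IC, 21 for the difference and 2 for sex. That filter removes Gm44560 and so shifts the median, to -4.16 in PWS-IC and -4.76 for the difference. Without litter 2 of the 5 were called in PWS-cr, and with sex as a term 174 genes in PWS-IC. With all libraries as labelled 0 genes and 0 of the 5 were called in PWS-IC and for the difference, with medians of -2.16 and -2.64, and 0 of the 5 between the wild types, where the median turned to -0.24. The cause was not tested. No paired analysis was possible because replicate numbers only count pups and the litter already stands in the model. Depth limits Gm44560 most, with 5 to 11 counts in PWS-IC, while 9330162G02Rik has the largest SE there (0.29).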
